A study of Mus musculus with 9 samples.

Results

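The 9 genes Unc5b, Robo1, Robo2, Robo4, Slit2, Slit3, Plxnd1, Sema3c and Sema3g, receptors and ligands of axon guidance with roles in blood vessels, were followed through 3 kinds of mouse brain sample. They were chosen by name from 18193 genes for which the arrays held a probe set naming 1 gene alone. They had 15 such probe sets of 45101 on the array, and each gene was represented by the one with the highest mean over the 9 arrays. Slit3 stayed below the filter on low values, so 8 of the 9 genes entered the tests, beside 12008 genes tested in all.

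The samples were 3 of microvascular fragments, short pieces of small brain vessels, from NMRI embryos at embryonic day 18.5, 3 of the embryonic brain tissue of the same strain and age that was left without the fragments (rest of brain), and 3 of microvascular fragments from adults aged 1 year on a mixed C57/SV129 background. The adults were 1 female and 2 males, and no genetic change or treatment is named for any group. The labels call the arrays of a group biological replicates, and they do not say whether a sample pooled several animals. The labels' protocols name a micro kit for RNA of embryonic and a mini kit for RNA of adult tissue, so that age, strain and kit cannot be told apart between the fragments of the 2 ages. The label of rest of brain replicate 3 writes the embryonic day differently in its description, and it was left where its title puts it. Values are log2 intensities after GCRMA, a correction for background by probe sequence with a normalization between arrays, and a value under 4 is called background.

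Axon guidance proteins steer growing nerve fibres by attraction and repulsion, and endothelial cells use part of the same machinery. Netrins bind Dcc and the Unc5 receptors, Slits bind Robo1 and Robo2, and class 3 semaphorins bind neuropilins and plexins. Unc5b, Robo4 and Plxnd1 are the family members best known from endothelium, where they restrain or steer the sprouting of new vessels. Robo1, Robo2 and the Slits are best known from neurons and their midline crossing.

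The endothelial marker levels of the fragments overlapped between the ages. The mean over 15 endothelial markers was 12.89 to 13.15 in embryonic fragments, 12.93 to 13.14 in adult fragments and 5.28 to 5.71 in rest of brain, where Pecam1, Tie1, Emcn and Erg were at background. Arrays of a group correlated at 0.978 to 0.993 (Pearson's r across tested genes, a description since genes are not replicates). In samples of whole tissue pieces, fewer cells of a type and less RNA per cell cannot be told apart. With 3 arrays a group, the number of arrays limits the precision, and p-values measure the spread between these samples.

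**Figure D1:**
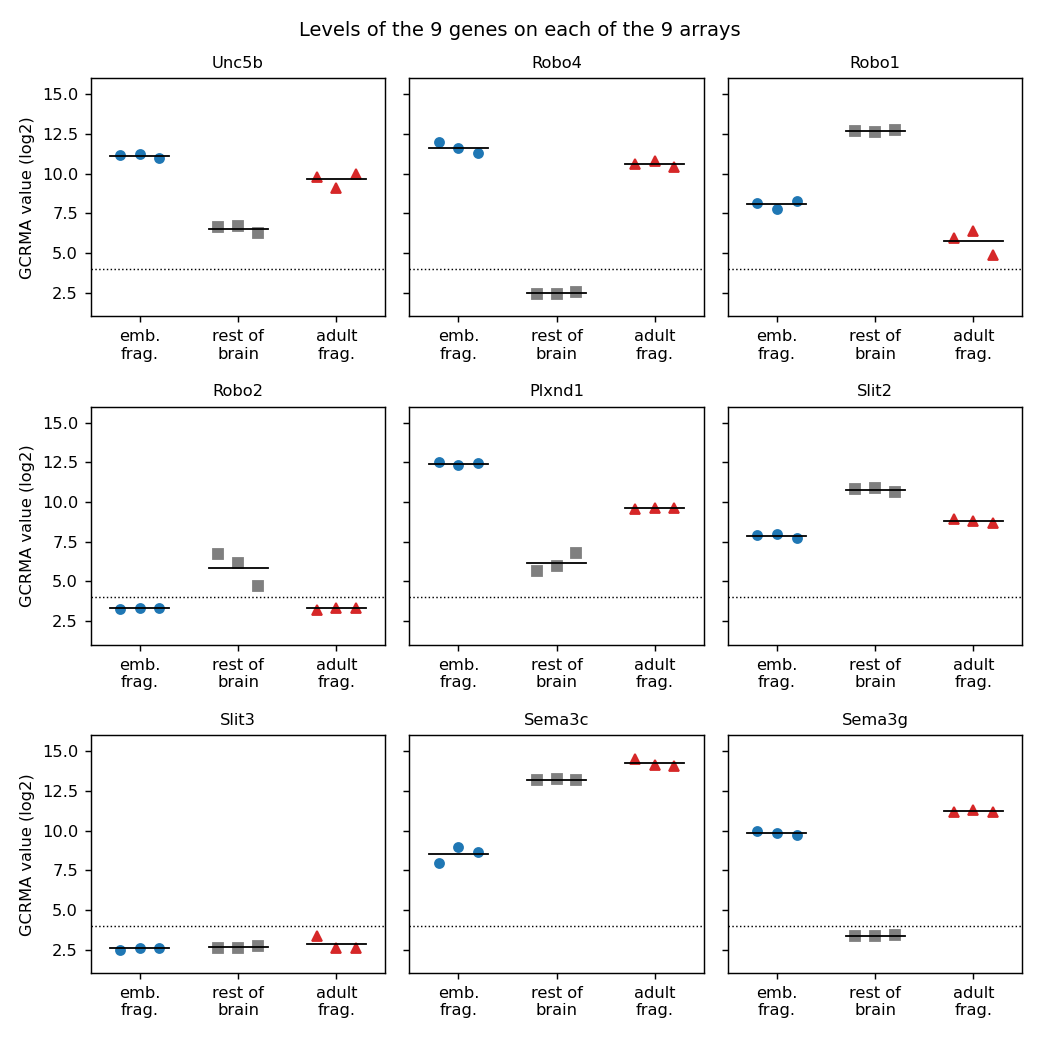
Log2 GCRMA values (vertical axis) of the 9 genes on each array, 1 panel a gene, for embryonic fragments (circles), rest of brain (squares) and adult fragments (triangles); black lines are means of 3 arrays and the dotted line is the background value of 4. Robo4 and Sema3g lie at background in rest of brain alone, Robo2 lies above it in rest of brain alone, Slit3 lies under it throughout, and Sema3c is lowest in embryonic fragments.

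The promoter windows of the 4 genes higher in vessels of both ages are shown with that of Robo1, a receptor of the same family as Robo4 that was lower there. Robo2, also lower there, has 3 windows and is left to the counts. Each is the 250 bases before a start site, 5′ to 3′ on the strand of the gene, from RefSeq on GRCm38.p6; all 9 genes matched the table by symbol, Robo2 with 3 windows and the others with 1. A window can belong to a start site inside the gene. Those of Unc5b, Sema3g, Sema3c and Slit3 lie at the gene's outermost start in RefSeq, while those of Robo4, Plxnd1, Slit2 and Robo1 belong to starts 70, 334, 1864 and 635631 bases inside the gene, and those of Robo2 to starts 150, 354673 and 1035618 bases inside. The windows lie at chr10:60831582-60831831 (minus strand) for Unc5b, chr9:37401722-37401971 (plus) for Robo4, chr6:115995006-115995255 (minus) for Plxnd1, chr14:31217623-31217872 (plus) for Sema3g and chr16:72662899-72663148 (plus) for Robo1. Capitals mark matches on either strand to any of the searched motifs, which were CGGAAG for ETS factors and its core GGAAG, with ACAAAG for SOX, TAAACA for FOX and CCACCC for KLF factors. The core GGAAG was added after the windows had been seen and the longer ETS letters had found no match, so its matches are a description only.
Unc5b: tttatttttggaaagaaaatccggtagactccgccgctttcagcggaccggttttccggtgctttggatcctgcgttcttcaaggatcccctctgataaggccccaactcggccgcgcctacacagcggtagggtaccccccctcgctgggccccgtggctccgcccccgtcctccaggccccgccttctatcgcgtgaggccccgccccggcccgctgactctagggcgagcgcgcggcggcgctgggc
Robo4: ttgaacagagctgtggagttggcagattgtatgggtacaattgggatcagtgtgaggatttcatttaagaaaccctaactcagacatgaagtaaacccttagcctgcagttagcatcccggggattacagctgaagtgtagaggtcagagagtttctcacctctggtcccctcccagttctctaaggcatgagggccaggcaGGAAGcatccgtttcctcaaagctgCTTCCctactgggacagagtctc
Plxnd1: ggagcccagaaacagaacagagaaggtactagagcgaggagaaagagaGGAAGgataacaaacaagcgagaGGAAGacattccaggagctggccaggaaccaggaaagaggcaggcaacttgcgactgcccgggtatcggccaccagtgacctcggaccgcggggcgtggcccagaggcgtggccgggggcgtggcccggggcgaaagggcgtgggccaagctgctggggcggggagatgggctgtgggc
Sema3g: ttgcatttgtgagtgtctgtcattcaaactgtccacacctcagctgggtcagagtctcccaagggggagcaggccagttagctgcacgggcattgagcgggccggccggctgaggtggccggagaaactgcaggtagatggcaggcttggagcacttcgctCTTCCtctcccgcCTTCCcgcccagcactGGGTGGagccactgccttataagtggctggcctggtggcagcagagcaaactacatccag
Robo1: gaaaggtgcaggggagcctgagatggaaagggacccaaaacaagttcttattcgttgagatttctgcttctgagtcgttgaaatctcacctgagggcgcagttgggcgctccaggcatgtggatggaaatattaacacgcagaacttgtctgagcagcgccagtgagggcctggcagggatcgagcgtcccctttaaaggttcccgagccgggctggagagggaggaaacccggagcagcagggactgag

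The letters GGAAG occurred 2 times each in the windows of Robo4, Plxnd1 and Sema3g, at 48 and 23, 202 and 179, and 89 and 76 bases before the start site (the first letter of each match). They occurred 3 times in 1 of the 3 windows of Robo2 and in none of the other members' windows. Of 32851 promoter windows of the same length, 64.1% hold GGAAG. The KLF letters CCACCC were found once for Sema3g, 60 bases before the start, at 243 and 220 bases for Sema3c, and in 2 windows of Robo2, against 28.1% of all windows. No window of the 9 genes held the longer ETS letters, the SOX letters or the FOX letters, which 13.6%, 16.5% and 12.0% of all windows hold. CpG dinucleotides numbered 2 in the window of Robo4, 8 for Sema3g, 11 for Robo1, 16 for Plxnd1, 25 for Slit2, 27 for Unc5b, 35 for Slit3, 39 for Sema3c and 8, 4 and 14 in those of Robo2, against a median of 6 over all windows. A match describes letters in a window and is no evidence of binding.

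Embryonic fragments against rest of brain, of 1 strain and age, asked which of the guidance genes were higher in the fragments and which in the tissue left. Unc5b, Robo4, Plxnd1 and Sema3g were higher in fragments, and Robo1, Robo2, Slit2 and Sema3c were lower. So 4 of the 8 tested genes were called higher and 4 lower at an adjusted p under 0.05 (limma, Benjamini-Hochberg over all genes tested), where over all genes tested 28.9% were higher and 37.2% lower, 66.1% in either direction. Arrays did not overlap for any of the 8. The median log2 difference of the 8 was 1.01, against -0.10 over all genes, and Robo2, Robo4 and Sema3g passed the filter only through groups in which they were high, so the count is a description.

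Among receptors, Robo4 had the widest span. Robo4, the endothelial Roundabout receptor, had values of 11.97, 11.64 and 11.28 on the 3 arrays of embryonic fragments and 2.43, 2.40 and 2.55 on those of rest of brain. Every fragment array was far above background and every rest of brain array under it. With rest of brain set to 4, the level in fragments was at least 198-fold higher (11.63 ± 0.34 against 2.46 ± 0.08, SD, n = 3; limma adjusted p = 1.29e-09).

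Plxnd1, the plexin that takes up semaphorin signals in endothelium, had values of 12.55, 12.31 and 12.44 in embryonic fragments and 5.66, 5.99 and 6.81 in rest of brain. The rest of brain arrays lay above background, so that this difference is measured on both sides. It came to 6.28 ± 0.25 (log2 difference ± SE), or 77.8-fold (adjusted p = 6.24e-08, limma). Unc5b, the netrin receptor of arterial and sprouting endothelium, had 11.20, 11.21 and 10.98 in fragments against 6.65, 6.73 and 6.24, a difference of 4.59 ± 0.23 or 24.0-fold (limma adjusted p = 2.59e-07). The fragment arrays lay close together and far from those of rest of brain.

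Robo1 and Robo2, the Slit receptors of neurons, went the other way from Robo4. Robo1 had values of 8.16, 7.76 and 8.28 in embryonic fragments and 12.67, 12.61 and 12.77 in rest of brain, a difference of -4.62 ± 0.35 or 24.5-fold (limma adjusted p = 3.30e-06). It lay above background on every fragment array. Robo2 had 3.27, 3.31 and 3.31 in fragments, all at background, and 6.71, 6.15 and 4.73 in rest of brain, whose arrays spread more than those of any other member. It was at least 3.63-fold lower in fragments (adjusted p = 5.32e-04, limma), and a filter asking for 6 on 3 arrays would have left it untested.

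Among ligands, Sema3g and Sema3c, both secreted class 3 semaphorins, parted. Sema3g, known from arterial endothelium, had values of 9.97, 9.87 and 9.75 in embryonic fragments and 3.33, 3.38 and 3.39 in rest of brain, at background there. It was at least 58.2-fold higher in fragments (limma adjusted p = 6.68e-10). Sema3c, a semaphorin that acts on neural crest, cortical axons and endothelium, had 7.95, 8.95 and 8.63 in fragments and 13.19, 13.26 and 13.19 in rest of brain. It was 26.0-fold lower in fragments, a difference of -4.70 ± 0.24 (adjusted p = 3.04e-07, limma).

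Slit2, a repellent of axons and a ligand of Robo1 and Robo2, had values of 7.91, 7.96 and 7.76 in embryonic fragments and 10.83, 10.89 and 10.66 in rest of brain. The difference of -2.92 ± 0.12, or 7.55-fold, was the smallest called fold among the members measured on both sides (limma adjusted p = 5.44e-08). Slit3 lay between 2.50 and 3.34 on all 9 arrays, at background in each group, and its level was not detectable with its single probe set. Slit1, the remaining Slit, was at background in embryonic fragments (2.40 to 2.42) and at 7.13 to 7.89 in rest of brain, at least 11.1-fold lower in fragments (limma adjusted p = 2.41e-08). Since Slit1 passed the filter only through rest of brain, its call is a description. It was named outside the rule, as a ligand of Robo1 and Robo2.

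Markers of nerve and glial cells moved with the members that were lower in fragments. All 9 tested neuronal markers were lower in embryonic fragments (median difference -6.33), at a mean level of 5.83 to 6.92 against 12.17 to 12.46, with Gria1 at background. Of 9 tested progenitor markers 7 were lower and 2 higher, at a mean level of 8.17 to 9.04 against 11.62 to 11.81. The 10 fibroblast and meningeal markers, 8 of them lower, stood at 8.05 to 8.62 against 10.12 to 10.31. Of 8 tested astrocyte markers 7 were lower (mean level 6.66 to 7.89 against 10.70 to 11.21), and so were all 7 tested oligodendrocyte lineage markers (5.07 to 5.71 against 8.34 to 8.82). The part of these cells in the lower values of Robo1, Robo2, Slit2 and Sema3c was not tested. The pericyte markers (10 of 10 tested higher, mean level over 12 measured 10.61 to 10.89 against 7.60 to 8.09) and the microglia and macrophage markers (10 of 10 higher, 10.68 to 12.55 against 8.56 to 8.67) moved with the endothelial ones. Whether they share in the levels of Unc5b, Robo4, Plxnd1 and Sema3g was not tested.

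**Figure D2:**
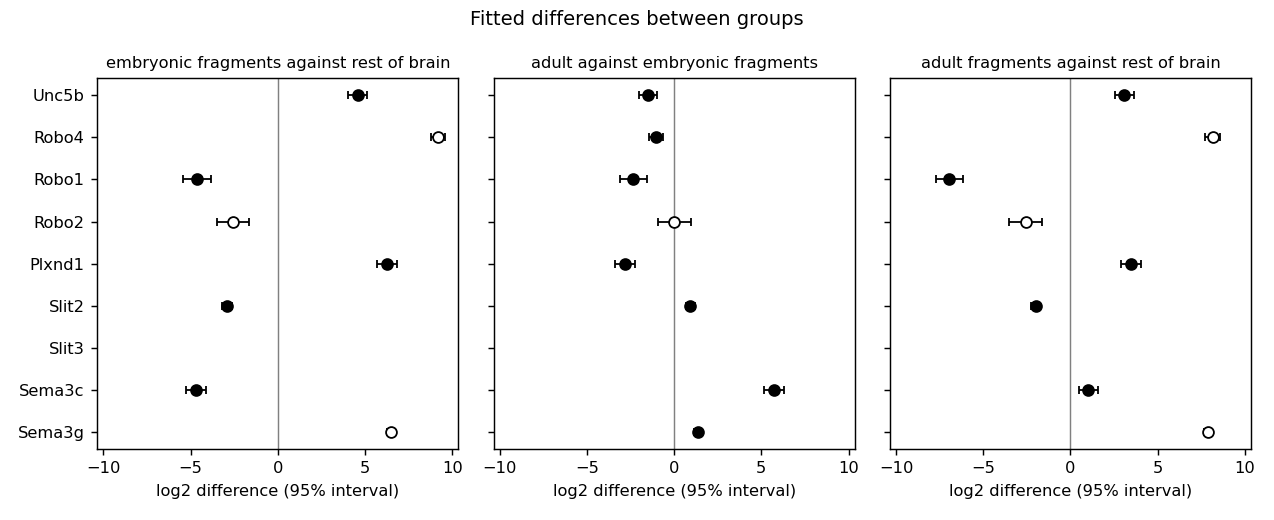
Fitted log2 differences (points, horizontal axis) with 95% intervals (bars) for the 8 tested genes in each comparison; open points mark a gene with a group at background, where the size is known as a bound alone. Unc5b, Robo4, Plxnd1 and Sema3g lie right of 0 and Robo1, Robo2 and Slit2 left of it in both comparisons with rest of brain, while Sema3c changes side between them.

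Adult against embryonic fragments set vessels of 2 ages beside each other. All 3 receptors that were higher in embryonic fragments than in rest of brain were lower in adult fragments, as was Robo1. The ligands Sema3c, Sema3g and Slit2 were higher in adult fragments. That made 3 of 8 tested genes higher and 4 lower, where 27.4% and 29.7% of all genes tested were higher and lower, 57.0% in either direction. Arrays did not overlap for these 7, and the median difference of the 8 was -0.51 against -0.02 over all genes. Comparisons that share the embryonic fragment or rest of brain arrays are not independent of each other.

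Plxnd1 had values of 9.57, 9.64 and 9.64 in adult fragments, all lower than the 12.31 to 12.55 of embryonic ones. The difference of -2.82 ± 0.25, or 7.05-fold, was the largest decrease among the members (limma adjusted p = 2.67e-05). Robo4 had 10.59, 10.80 and 10.44, a difference of -1.02 ± 0.18 or 2.03-fold (adjusted p = 0.00126, limma). Unc5b had 9.78, 9.12 and 10.00, a difference of -1.50 ± 0.23 or 2.82-fold (limma adjusted p = 6.49e-04). Of the 15 endothelial markers 4 were higher and 4 lower, with a median difference of 0.07. With each array centred on those 15 markers, the differences were -2.85 for Plxnd1, -1.05 for Robo4 and -1.52 for Unc5b.

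Robo1 had values of 5.96, 6.40 and 4.86 in adult fragments, a difference of -2.33 ± 0.35 from embryonic ones or 5.02-fold (limma adjusted p = 4.90e-04). It had the widest spread of the members within adult fragments (SD 0.79). Of the neuronal markers 5 of 9 were lower and 2 higher (mean level 4.13 to 4.74), with Elavl3, Tubb3, Gria2, Gap43 and Dcx at background. Of 9 progenitor markers 5 were lower and the other 4 were not called (mean level 6.12 to 6.61 against 8.17 to 9.04), with Pax6, Eomes, Dlx1 and Dlx2 at background. Their part in the value of Robo1 was not tested. Robo2 stayed at background, at 3.22, 3.34 and 3.33, and no fold can be given. Its fitted difference had a 95% interval of -0.95 to 0.94. That width comes from a spread shared by the 3 groups, mainly that of rest of brain (SD 1.02). The SD was 0.02 in embryonic and 0.07 in adult fragments.

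Sema3c differed most between the ages among the members. Its values were 14.54, 14.14 and 14.05 in adult fragments against 7.95, 8.95 and 8.63 in embryonic ones, a difference of 5.73 ± 0.24 or 53.1-fold (limma adjusted p = 3.22e-07). The adult fragments also lay above rest of brain, so that embryonic fragments were the lowest of the 3 groups. Sema3g had 11.16, 11.32 and 11.20, higher by 1.37 ± 0.10 or 2.58-fold (adjusted p = 8.00e-06, limma). Slit2 had 8.92, 8.80 and 8.69, higher by 0.93 ± 0.12 or 1.91-fold (limma adjusted p = 1.73e-04). Neither gene's arrays overlapped between the ages.

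Several other cell types stood higher in adult fragments beside these ligands. Of 9 smooth muscle markers 8 were higher and 1 lower, at a mean level of 9.65 to 9.93 against 5.64 to 5.92 in embryonic fragments, where Cnn1, Lmod1, Myocd and Pln were at background. Of 8 tested astrocyte markers 7 were higher (9 measured, mean level 9.45 to 10.00 against 6.66 to 7.89), and of 7 choroid plexus and ependymal markers 6 were higher (9.77 to 9.86 against 6.41 to 7.69). The fibroblast and meningeal list was split, with 3 of 10 higher and 2 lower (8.40 to 8.87 against 8.05 to 8.62). The part of these cells in the higher values of Sema3c, Sema3g and Slit2 was not tested. With each array centred on the endothelial markers the 3 ligands differed by 5.70, 1.34 and 0.90.

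**Figure D3:**
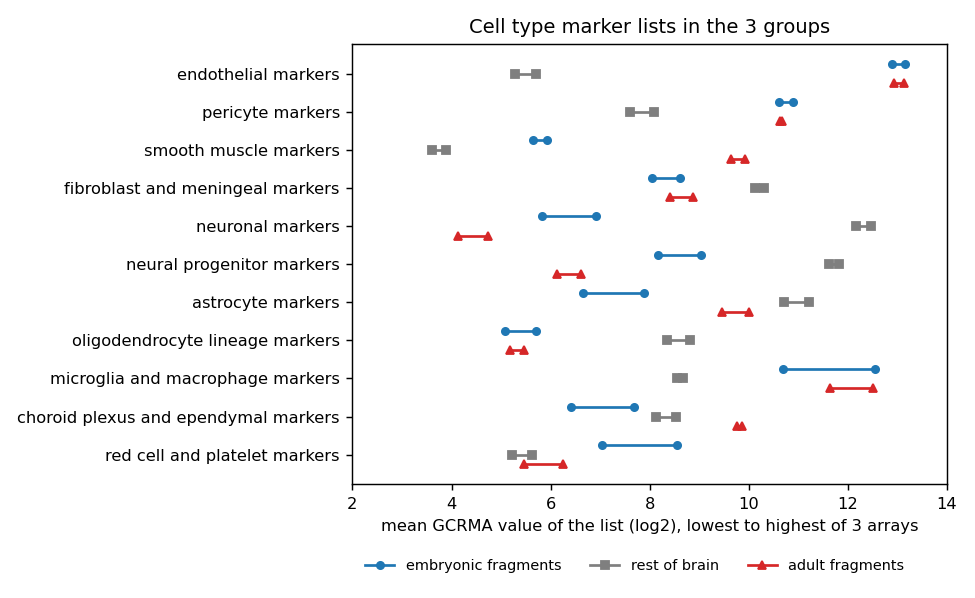
Mean log2 GCRMA value (horizontal axis) of 11 cell type marker lists, from the lowest to the highest of 3 arrays, for embryonic fragments (circles), rest of brain (squares) and adult fragments (triangles). Endothelial markers lie at 12.89 to 13.15 in both kinds of fragment, while smooth muscle markers lie at 5.64 to 5.92 in embryonic and at 9.65 to 9.93 in adult fragments.

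Adult fragments against rest of brain, which differ in tissue, age, strain and kit at once, placed the 3 levels of each gene in order. Robo4 and Plxnd1 were highest in embryonic fragments, lower in adult fragments and lowest in rest of brain, and Unc5b had the same order. In adult fragments Robo4 was still at least 97.7-fold above rest of brain, Plxnd1 11.0-fold and Unc5b 8.52-fold (limma adjusted p = 1.45e-09, 2.30e-06 and 2.71e-06). Sema3g was highest in adult fragments, at least 150-fold above rest of brain (limma adjusted p = 2.48e-10).

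Robo1 had the reverse order, with rest of brain first, embryonic fragments next and adult fragments last, 123-fold below rest of brain (-6.95 ± 0.35, limma adjusted p = 1.70e-07). Slit2 was highest in rest of brain and 3.96-fold lower in adult fragments (-1.99 ± 0.12, adjusted p = 4.77e-07, limma), with embryonic fragments below both. Sema3c was higher in adult fragments than in rest of brain by 1.03 ± 0.24 or 2.04-fold (limma adjusted p = 0.00429), the narrowest gap between neighbours in its order. Robo2 was at least 3.63-fold lower in adult fragments (limma adjusted p = 4.25e-04), and the 2 kinds of fragment, both at background, have no order. In all, 5 of the 8 tested genes were higher and 3 lower, where 33.1% of all genes tested were higher and 42.9% lower, 76.0% in either direction. The median difference of the 8 was 2.06 against -0.17 over all genes. Here too Robo2 passed the filter only through rest of brain, and Robo4 and Sema3g only through fragments, so the count and the median are a description.

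Of the 9 genes, 3 had a second probe set above background, which gave a check of these patterns. For Sema3c it read 7.98, 7.75 and 7.48 in adult fragments, 5.65, 5.49 and 5.92 in rest of brain and 3.92, 3.92 and 3.93 in embryonic fragments, the order of the chosen one. Adult fragments were at least 13.3-fold above embryonic ones there (adjusted p = 4.60e-07 in a limma fit over 23444 probe sets). For Unc5b the second probe set read 7.51, 6.55 and 6.83 in embryonic fragments, 4.83, 2.35 and 3.05 in rest of brain and 6.32, 4.92 and 4.90 in adult fragments. Embryonic fragments were again higher than rest of brain (3.56 ± 0.65, limma adjusted p = 0.00127, 2 of its 3 rest of brain arrays under 4), and the difference between the ages, -1.59 ± 0.65, was not called (limma adjusted p = 0.0667).

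For Robo1 the second probe set was at 5.53, 5.13 and 5.45 in rest of brain and at 2.19 to 2.21 on all fragment arrays. It placed Robo1 at least 2.59-fold lower in fragments of either age, and, at background in both, could not show the difference between the ages. The third probe set of Robo1 and both other ones of Slit2 stayed under 4 on all 9 arrays. Robo2, Robo4, Slit3, Plxnd1 and Sema3g had no other probe set naming them alone.

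**Figure D4:**
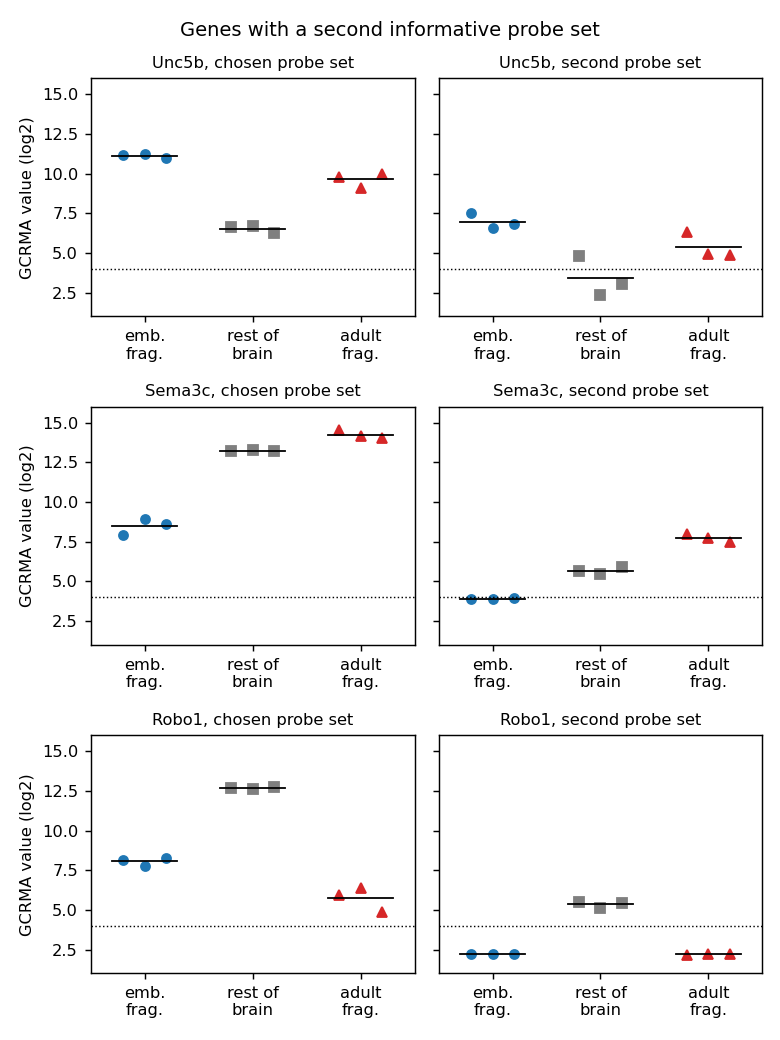
Log2 GCRMA values (vertical axis) on each array for the chosen and the second probe set of Unc5b, Sema3c and Robo1, with symbols, mean lines and background line as in the plot of all 9 genes. The order of the 3 groups is the same for both probe sets of Unc5b and of Sema3c, and the second of Robo1 lies under 4 on every fragment array.

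The rest of the guidance machinery, 104 genes in 6 lists of which 92 were tested, was mostly lower in embryonic fragments than in rest of brain, with 19 higher, 59 lower and 14 not called (median difference -1.86, against -0.10 over all genes, of which 28.9% were higher and 37.2% lower). Some of the lower genes, among them Unc5d, Cntn2, Sema4f, Sema3a and Dpysl5, were at background on all fragment arrays. They passed the filter only through rest of brain, and Efna1, called higher, only through fragments, so the counts of these lists are a description. Of the other netrins and their receptors 11 of 12 tested genes were lower and the remaining one was not called. Unc5d, another Unc5 receptor, was at least 59.9-fold lower and Dcc, the attractive netrin receptor, 74.5-fold lower (limma adjusted p = 2.67e-09 and 4.67e-07). The embryonic fragment arrays of Dcc, at 4.05, 5.67 and 4.54, lay near the background value of 4. In the Slit and Robo list 4 of 7 were lower and 1 higher, with Srgap3, a GTPase-activating protein downstream of Robo, and Gpc1, a glypican, at differences of -5.40 ± 0.35 and -5.10 ± 0.22, and Srgap2 at 0.52 ± 0.12. Of the plexins, neuropilins and their adhesion partners 10 of 13 were lower and 2 higher, led by Cntn2 (at least 52.2-fold lower) and L1cam (37.5-fold lower), adhesion molecules of axons.

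The 2 higher genes of that list were the neuropilins, the ligand-binding partners of plexins for class 3 semaphorins. Nrp1 stood at 13.73 to 13.90 in embryonic fragments and 12.94 to 13.08 in rest of brain (0.81 ± 0.10, limma adjusted p = 9.36e-05). Nrp2 differed by 1.28 ± 0.20 (limma adjusted p = 4.02e-04). Neither was called between the ages (0.16 and -0.21). Sema3e, the semaphorin that binds Plxnd1 directly, was at background in all fragments and at 5.59 to 6.10 in rest of brain, at least 3.49-fold lower in embryonic fragments (limma adjusted p = 1.15e-07). Since Sema3e passed the filter only through rest of brain, its call is a description. Nrp1 and Sema3e were named outside the rule, as partners of Plxnd1.

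Of 18 other semaphorins 11 were lower in embryonic fragments and 3 higher. Sema4f and Sema3a, the latter a repellent of axons and of endothelial cells, were at least 40.2-fold and 17.7-fold lower, and Sema7a, a membrane-anchored semaphorin, was 4.68-fold higher (limma adjusted p = 1.92e-08, 3.85e-09 and 1.09e-05). Of 16 ephrins and Eph receptors 13 were lower and 3 higher, with Efna1, an ephrin ligand induced in endothelium, at least 78.1-fold higher and Epha3 and Efna2 47.6-fold and 30.7-fold lower. Cytoplasmic effectors were split evenly, with 10 of 26 higher and 10 lower. Fes, a tyrosine kinase that acts after semaphorins, was 56.8-fold higher, and Dpysl5, a collapsin response mediator of neurons, was at least 56.3-fold lower. The rest of brain arrays of Fes, at 4.01 to 4.04, lay barely above the background value of 4.

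**Figure D5:**
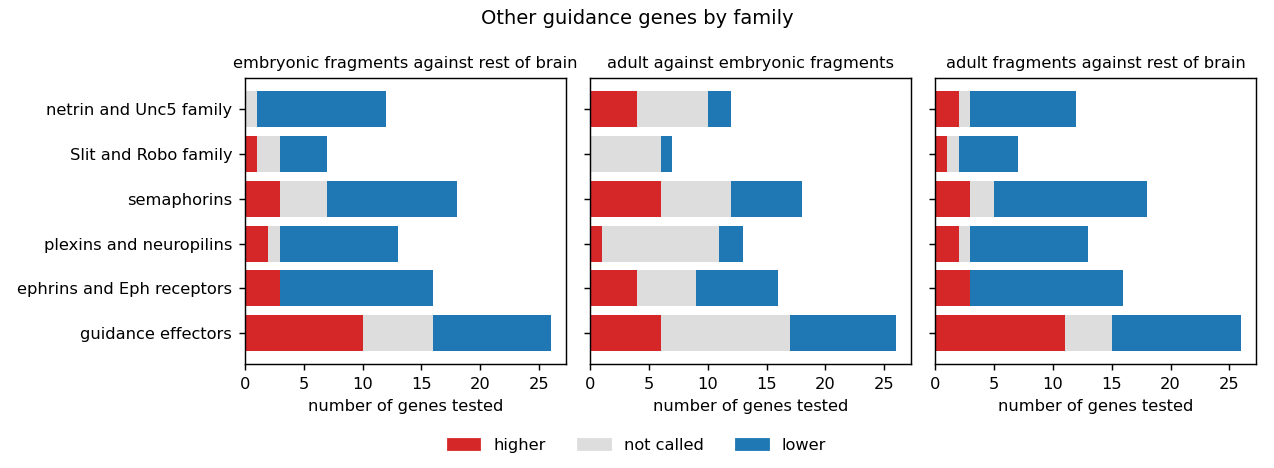
Number of tested genes (horizontal axis) called higher (red), not called (grey) or called lower (blue) in the 6 lists of other guidance genes, for each comparison. Lower genes prevail in the netrin, plexin and ephrin lists against rest of brain, at 11 of 12, 10 of 13 and 13 of 16 in embryonic fragments. In each of these lists some lower genes, such as Unc5d, Cntn2 and Ephb6, passed the filter only through rest of brain.

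Between the ages 21 of the 92 genes were higher in adult fragments, 27 lower and 44 not called (median -0.11 against -0.02 over all genes), where 27.4% and 29.7% of all genes tested were higher and lower. Among these calls Sema3d and Sema3e, counted as higher, and Unc5d, counted as lower, were at background in both groups and have no measured fold. Netrins were the leading genes of their list, where 4 of 12 were higher and 2 lower. Ntn4, a netrin of basement membranes, was at 12.59, 12.58 and 12.06 in adult and 5.47, 5.46 and 6.25 in embryonic fragments, a difference of 6.69 ± 0.23 or 103-fold (limma adjusted p = 9.65e-08). Ntn1 was at 9.75, 10.12 and 9.79 against 5.26, 5.94 and 5.95, a difference of 4.17 ± 0.24 or 18.0-fold (limma adjusted p = 1.90e-06). Both netrins were higher in adult fragments, where Unc5b was lower, and a link between them was not tested. Dcc was at least 1.69-fold lower (-1.98 ± 0.35), a call lost with values under 4 set to 4 (-0.75, limma adjusted p = 0.0947).

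Of the Slit and Robo list Srgap1, 1 of 7 genes, was lower, by a difference of -3.45 ± 0.21, and the others were not called. Semaphorins were split 6 higher to 6 lower of 18, and the higher call of Sema3e was lost with values under 4 set to 4 (0.00, limma adjusted p = 1.00). Sema3b was at least 4.82-fold higher, Sema4d 3.27-fold higher (1.71 ± 0.45, and 1.11 without embryonic fragments replicate 1) and Sema5b at least 3.27-fold lower. Among plexins and partners 1 of 13 was higher, L1cam (limma adjusted p = 7.06e-04), and 2 were lower, Plxnc1 by a difference of -2.58 ± 0.26 and Plxna1 by -0.88 ± 0.21. Of ephrins and Eph receptors 4 of 16 were higher, led by Efna5 (5.16-fold), and 7 lower, led by Epha5 (under 4 on 2 of 3 adult arrays, -3.65 with those set to 4) and Efnb3 (-2.01 ± 0.17, under 4 on 1 of 3). Of the effectors 6 of 26 were higher and 9 lower. Among the latter Gipc1, an adaptor that binds the tail of Plxnd1, had 6.77, 7.19 and 8.06 in adult and 9.43, 9.69 and 10.04 in embryonic fragments, a difference of -2.38 ± 0.31 (limma adjusted p = 2.39e-04), and Crmp1, a neuronal collapsin response mediator, was at least 26.5-fold lower. Against rest of brain, adult fragments had 22 of the 92 genes higher, 61 lower and 9 not called, beside 33.1% higher and 42.9% lower over all genes. The lower count again holds genes that passed the filter only through rest of brain.

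For each tested member the 2 genes with the highest Pearson's r over the 9 arrays were found among all tested genes. Since the 3 groups differ strongly, r over 9 arrays mainly reflects the group means, and 96 (Robo2) to 1058 genes (Sema3g) reached an r of 0.95. Plxnd1 was followed most closely by Sipa1, a GTPase-activating protein for Rap (0.9977), and Angpt2, an angiopoietin of remodelling vessels (0.9948). Unc5b had Npnt, a matrix protein (0.9980), and Tpst2, a protein sulfotransferase (0.9960), and Robo4 had Rflnb (0.9989) and Actn4, an actinin (0.9988). Sema3g had Slc52a3, a riboflavin transporter (0.9999), and Rnf125, a ubiquitin ligase (0.9998).

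Robo1 had Foxp2, a transcription factor of neurons (0.9985), and Smim13 (0.9967). Robo2 had Shisa3 (0.9992) and Spire2, an actin nucleator (0.9943). Like Robo2, Shisa3 was lowest on rest of brain replicate 3 (6.58, 5.94 and 4.32 on replicates 1 to 3) and lay at background on all fragment arrays. Slit2 had Klhl7 (0.9968) and Nedd4l, a ubiquitin ligase (0.9949), and Sema3c had Epb41l4a (0.9962) and Svip (0.9954). Epb41l4a stood at 8.75 to 8.84 in adult fragments, 8.03 to 8.13 in rest of brain and 4.56 to 4.92 in embryonic fragments, the order of Sema3c.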

How the data were processed

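Each array has 1 deposited log2 value for a probe set. The submitters' processing notes name GCRMA 2.6.0 and R 2.4.1 as the authors' tools, and no other step; that values are log2 was judged by how far they reach. GCRMA's normalization between arrays hides a change in total RNA per cell. Array medians were 3.58 to 3.67. Per the labels' protocols, the biotin label was put on cRNA amplified from roughly 100 ng of RNA. Without scanner files, which were not used here, neither another background correction nor a slide or date block was run. No pair of arrays was identical, and 0 columns of per-sample values were left unused.

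The platform annotation named 1 gene for 34958 probe sets, several for 932 and none here for 9211; 64 control probe sets were left out. RefSeq identifiers of GRCm38.p6 matched 34754 and changed 0 symbols. Genes reaching 4 on 3 or more arrays were tested in a 2-sided limma fit (version 3.58.1, R 4.3.3, functions lmFit and eBayes) of all 9 arrays, with Benjamini-Hochberg adjustment over 12008 genes. "At least" folds set values under 4 to 4, and where both groups were under it the fold was left out. The fit was tested on simulated data, with 10 false calls among 12008 genes of which 200 were changed. The simulated noise was independent between genes, and far fewer genes were changed than the 57.0% to 76.0% called in the data. It therefore checks the working of the fit and gives no rate of false calls for these data.

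The members, lists and rules were chosen with earlier results of these data known. Named genes were all members, the 2 called genes of each list with the largest differences in its main direction and the 1 largest in the other, and the 2 genes most like each member. Lists are described gene by gene for the comparisons with embryonic fragments, and there results on 2 effectors that this rule names are not reported. Same-numbered embryonic samples deviated together from their group means (r = 0.19, 0.20 and 0.22 over tested genes). Embryonic fragments and rest of brain of unlike number had r of -0.21 to -0.02. An r of 0.21 also arose between adult fragments replicate 2 and embryonic fragments replicate 1, which differ in age and strain. The check therefore cannot settle whether the numbers pair the embryonic samples, and the labels state no shared litter. Alternatives were further normalizations, filters, a floor, an offset, array weights, a replicate block, 2 groups alone, each array left out and other probe sets.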

Additional observations from a re-analysis of the deposited data

How the results depend on the processing

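Under every alternative that was run, every called member kept its direction, and the exceptions in calls concern other probe sets: that of Unc5b (-1.59, limma adjusted p = 0.0667) and that of Robo1 (-0.01, at background) were not called between the ages. A filter at 6 left Robo2 untested. Leaving out 1 array at a time kept each of the members' calls, with differences of 6.04 to 6.61 for Plxnd1 and 4.44 to 4.68 for Unc5b (embryonic fragments against rest of brain) and 5.45 to 5.95 for Sema3c (adult against embryonic fragments). The replicate block changed no member's call: with it 4 members were higher and 4 lower in embryonic fragments against rest of brain, also with the embryonic arrays alone, and 3485 genes were higher and 4502 lower over all genes. Same-numbered adult and embryonic samples had r of 0.03, -0.08 and 0.21 with embryonic fragments and of -0.09, -0.07 and 0.13 with rest of brain. The block left 3 members higher and 4 lower between the ages. Robo2, at background in fragments of both ages, changed sign between the ages with cyclic loess (0.03), with arrays centred on their medians (0.01) and in the range without 1 array (-0.03 to 0.03). Slit1 did so when centred on endothelial markers (-0.02). Among other named genes, Gipc1 passed in embryonic fragments against rest of brain with those arrays alone (0.52, limma adjusted p = 0.0472, and 0.0409 with the replicate block), with array weights (0.62, 0.0259) and without adult fragments replicate 3 (0.0480), and Nrp1 between the ages with cyclic loess (0.30, limma adjusted p = 0.0356). The number of arrays and, for Robo2, Slit3 and the second probe sets, signal near background limit what can be seen.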
